A study of Mus musculus with 14 samples.

Results

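The comparison described here set mouse embryonic stem (ES) cells treated for 48 h with LY294002, at 10 nM by the label, against untreated control cells grown for 3 days. LY294002 is an inhibitor of phosphoinositide 3-kinase (PI3K). Its dose rests on the label alone, and the unit given there may be an error. The members are the 2 arrays of treated cells and the 2 control arrays, 4 of the 14 arrays of the series, and all 42006 non-control probes on them. All 14 arrays hold RNA of MC1 ES cells, a line of mouse strain 129, in the Cy3 channel. The Cy5 channel holds 1 common reference for all arrays, 2 parts of a pool of 11 mouse cell lines and 1 part RNA of 129 ES cells. The LY294002 and control cells belong to the subline MC1-ZE3, as do the 2 further groups used for comparison, cells given 50 nM retinoic acid (RA) for 48 h and cells of another standard culture collected on day 3. Standard medium holds the cytokine LIF, which LY294002-treated and control cells shared. A further 3 groups of 2 arrays appear only as context. These are colonies picked on day 4 of 50 nM RA, from another subline (MC1-ZE16), colonies picked on day 7 of 50 nM RA, from cells labelled ES MC1, and MC1-ZE3 cells grown for 10 passages without RA after 7 days of it. The labels do not say whether the 2 arrays of a group come from separate cultures. The p-values below therefore measure only the spread between arrays of the same group, pooled over all 14 arrays, which may be technical.

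PI3K phosphorylates a membrane lipid in response to growth factors, and the lipid product recruits the kinase AKT. AKT in turn acts on mTOR, on FOXO transcription factors and on the kinase GSK3. In mouse ES cells PI3K signalling is known for its part in LIF-dependent self-renewal, in proliferation and in the control of the pluripotency factor Nanog. LY294002 competes with ATP at the catalytic site and is known to act also on other kinases, mTOR and casein kinase 2 among them, and on bromodomain proteins.

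Every value below is a log2 ratio of the Cy3 sample to the Cy5 reference, so 0 means a level equal to the reference and a difference of 1 means 2-fold. The 2 LY294002 arrays lay on a slide of their own, and the 2 control arrays shared another slide with the RA 48 h arrays, all scanned on the same day. Slide and LY294002 treatment therefore cannot be told apart. The standard day 3 arrays lay on other slides and were scanned on other days. Where LY294002, control or RA 48 h cells are compared with them, slide and scan day cannot be told apart from treatment or culture. One array stood apart before normalization: the second LY294002 array had a median log2 ratio of -1.19, against -0.47 on the first LY294002 array, and -0.30 and -0.43 on the control arrays. After loess normalization the 2 LY294002 arrays correlated at r = 0.986 across probes, and the 2 control arrays at r = 0.992. Cy3 was well above background at 68.7% and 65.7% of probes on the LY294002 arrays, against 73.1% and 74.8% on the control arrays. Saturated Cy3 spots numbered 0 on all arrays.

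The probes are 60-base oligonucleotides that carry an identifier and no gene name. The sequences of the probes with the largest differences are printed here because they are the one means of tracing these signals to a gene. Probe sequences are given 5′ to 3′ as listed on the array, and capitals mark the letters AATAAA, the commonest polyadenylation signal. Of probes that hold these letters, or that overlap such a probe, only the last 30 bases are shown. Their places in the genome were not determined, since no genome was used here.
Z00059689-1: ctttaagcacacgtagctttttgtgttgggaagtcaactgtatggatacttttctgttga
Z00070436-1, last 30 bases: gccatgtgtggaaacctatttAATAAAtaa
Z00075537-1: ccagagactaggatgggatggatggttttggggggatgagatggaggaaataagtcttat
Z00031029-1: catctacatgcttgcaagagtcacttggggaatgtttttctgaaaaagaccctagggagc
Z00034256-1: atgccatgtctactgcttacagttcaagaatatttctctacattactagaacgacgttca
Z00074771-1: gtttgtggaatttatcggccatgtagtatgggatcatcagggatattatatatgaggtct
Z00073883-1, last 30 bases: cttgggttgaccccagaaattgctAATAAA
Z00071847-1, last 30 bases: gaggccccttgggttgaccccagaaattgc
The last 2 probes share 53 bases and so report on the same stretch of RNA.

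LY294002-treated and control cells differed at a majority of measured probes, mostly by little, and the large differences were mainly losses. Of 31052 probes tested, 16322 (52.6%) passed an adjusted p of 0.05 in limma. Of these, 7595 (24.5% of those tested) were higher and 8727 (28.1%) lower in LY294002-treated cells. At least 2-fold differences were found for 440 higher probes (1.42%) and for 1783 lower probes (5.74%). Under loess normalization the asymmetry grew with size, which was not counted under other scalings. At 4-fold or more, 14 probes were higher and 396 lower with LY294002, at 8-fold or more 0 were higher and 93 lower, and at 16-fold or more 0 were higher and 22 lower. The median change over all tested probes was 0.00.

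**Figure D1:**
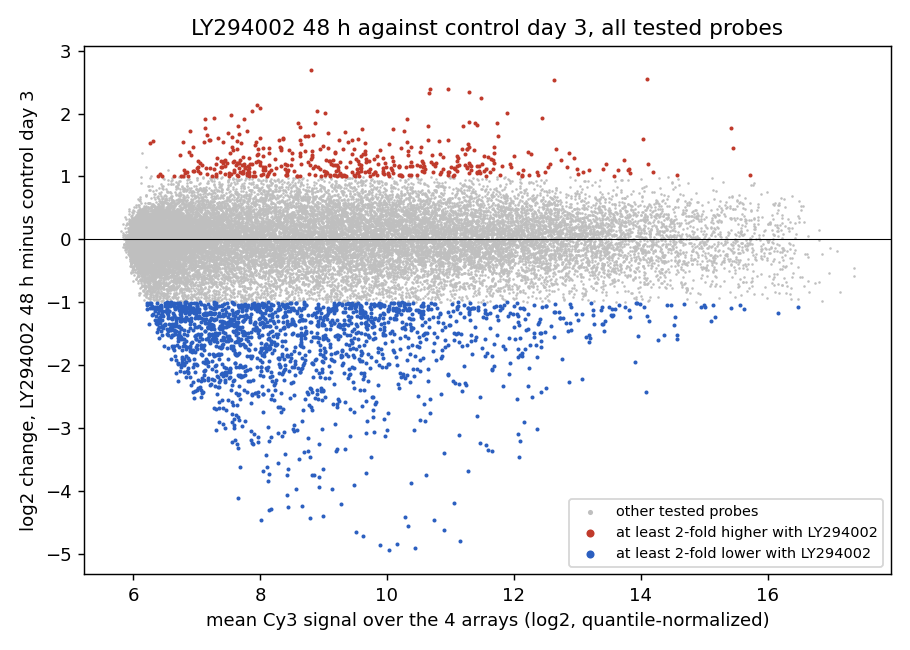
Log2 change of LY294002 48 h minus control day 3 for each of 31052 tested probes (y axis) against its mean Cy3 signal over the 4 arrays (x axis, log2). Red points are the 440 probes at least 2-fold higher with LY294002 and blue points the 1783 probes at least 2-fold lower, with losses reaching almost 5 on the log2 scale and gains staying below 3.

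The asymmetry depended in part on how the arrays were scaled. With each array only centred on its median, gains of 2-fold or more with LY294002 numbered 1107 and losses 1243, and the median probe moved by 0.12. Among all calls, 64.8% were higher under median centring, against 46.5% under loess. Agilent's processed signals gave 1604 higher and 3323 lower probes and 51.8% of calls higher, and the Cy3 channel alone gave 655 and 1442 and 55.5%. The authors' value table, which holds fewer of these probes (19082 tested), gave 911 higher and 2411 lower. At least 2-fold losses thus outnumbered gains under each of these scalings, narrowly under median centring. Of the 440 probes higher under loess, 409 (93.0%) were also at least 2-fold higher under the other 4 scalings of the scanner files, and of the 1783 lower probes 1158 (64.9%) were also at least 2-fold lower. In the opposite direction, 0 of either set were called.

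**Figure D2:**
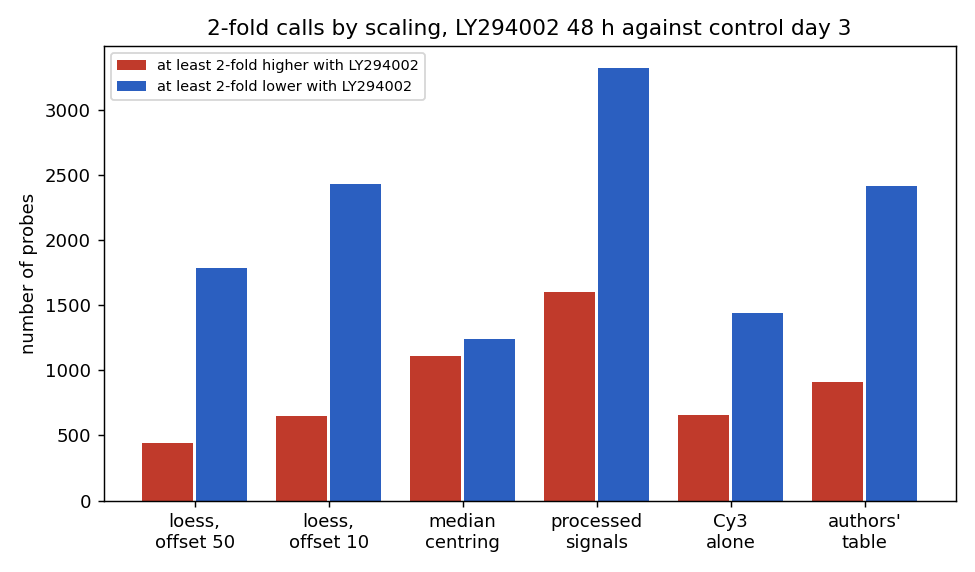
Number of probes at least 2-fold higher (red) and at least 2-fold lower (blue) with LY294002 48 h than in control day 3, past an adjusted p of 0.05, under 6 ways of scaling the arrays. The lower probes outnumber the higher ones in every pair of bars, from 1243 against 1107 under median centring to 3323 against 1604 with processed signals.

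The share of probes called differed with signal strength. The probes were cut into 4 equal classes by mean Cy3 signal. In the dimmest class 26.1% of probes were called in either direction and 0.644% were at least 2-fold lower with LY294002. In classes 2, 3 and 4, from dim to bright, the called shares were 53.9%, 66.6% and 63.7%, and the shares at least 2-fold lower were 8.48%, 9.74% and 4.11%. A further 1877 tested probes were well above background on both control arrays and on neither LY294002 array, against 71 with the reverse pattern. Of the 1877, 114 (6.07%) were at least 2-fold lower with LY294002, near the 5.74% of all tested probes. The lower overall detection on the LY294002 arrays, given above, moved with this count, and its part in it was not tested. Among the 27110 probes above background on all 4 arrays, 1611 (5.94%) were at least 2-fold lower and 437 (1.61%) higher.

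Probes that overlap in sequence served as a check of single spots within the arrays. Such pairs read the same samples on the same slides, so their agreement does not bear on slide or treatment. Of 738 tested pairs of probes that share at least 20 bases, the 2 log2 changes correlated at r = 0.977 across pairs, as a description over probes that share libraries and sequence, and their median absolute difference was 0.06. Both probes were called in 423 pairs, in the same direction in all 423. In 106 pairs at least 1 probe changed 2-fold or more, and in 97 of them both did so the same way.

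The largest gain over control was that of probe Z00059689-1. Its log2 ratios were 0.74 and 0.47 on the LY294002 arrays, against -2.14 and -2.04 on the control arrays. Both LY294002 arrays were far above both control arrays, by 2.69 ± 0.12 (SE) on the log2 scale, or 6.47-fold (limma adjusted p = 1.24e-09). Standard day 3 cells lay between, at -0.55 and -0.45, and the LY294002 cells were above them by 1.11 ± 0.12 (limma adjusted p = 6.59e-06). The transcript was at its lowest in day 7 RA colonies, at -3.29 and -3.18.

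Probe Z00070436-1 had the second largest gain. It read 2.27 and 2.37 on the LY294002 arrays, against -0.22 and -0.26 on the control arrays. The difference of 2.56 ± 0.09 corresponds to 5.88-fold (limma adjusted p = 1.39e-10), and no other group of the series reached the LY294002 level. RA 48 h cells were on the other side of the control, at -1.76 and -1.74. LY294002 cells exceeded RA cells by 4.07 ± 0.09, or 16.7-fold (limma adjusted p = 1.27e-12).

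Probe Z00075537-1, the largest gain over RA 48 h cells, had a like course over the groups. It measured 2.63 and 2.78 with LY294002, against 0.16 and 0.16 in control cells and -1.44 and -1.45 in RA cells. LY294002 cells were 5.82-fold above control (limma adjusted p = 1.52e-10) and 17.8-fold above RA (limma adjusted p = 1.16e-12). Both probes were also raised over standard day 3 cells, Z00070436-1 by 1.88 ± 0.09 and Z00075537-1 by 2.11 ± 0.09 on the log2 scale.

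The largest loss was at probe Z00031029-1. Its log2 ratios were -2.60 and -2.75 on the LY294002 arrays, against 2.25 and 2.29 on the control arrays. The LY294002 cells were 30.8-fold lower (log2 change -4.94 ± 0.14, limma adjusted p = 2.99e-11). They were also 9.53-fold below standard day 3 cells (0.39 and 0.76, limma adjusted p = 1.71e-09), so this loss did not rest on the control arrays. In RA 48 h cells the same probe stood far above control, at 5.13 and 5.15, and LY294002 cells were 224.8-fold below RA cells (limma adjusted p = 3.55e-13).

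Probe Z00034256-1 showed a similar course and had the largest loss against RA 48 h cells. It read -2.82 and -2.69 with LY294002, against 1.92 and 2.01 in control cells and 5.20 and 5.28 in RA cells. LY294002 cells were 26.4-fold below control (limma adjusted p = 2.47e-11) and 255.4-fold below RA cells (limma adjusted p = 2.14e-13). For both probes the LY294002 arrays were the lowest of all 14, and the RA colonies of day 4 and day 7 lay above control.

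Probe Z00074771-1 had the second largest loss against control and behaved differently against the other baseline. It read -4.86 and -4.81 with LY294002, against 0.03 and 0.11 in control cells, a 29.96-fold difference (limma adjusted p = 4.66e-13). Standard day 3 cells were nearly as low as LY294002 cells, at -4.47 and -4.28. Against them the LY294002 cells differed by -0.46 ± 0.08 (limma adjusted p = 0.000264). The size of this loss therefore depended on which untreated group served as the baseline.

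Against standard day 3 cells the largest losses were at the 2 overlapping probes Z00073883-1 and Z00071847-1. Z00073883-1 read -2.68 and -2.72 with LY294002, against 1.85 and 1.85 in standard cells and 0.63 and 0.67 in control cells. That placed LY294002 cells 23.4-fold below standard (limma adjusted p = 3.26e-11) and 10.2-fold below control (limma adjusted p = 8.92e-11). Z00071847-1 gave 22.6-fold and 10.3-fold for the same pair of comparisons. RA 48 h cells were between, at -0.29 and -0.34 for Z00073883-1.

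The largest gains over standard day 3 cells were of another kind. Probe Z00009597-1 measured 0.73 and 0.67 with LY294002, against -2.08 and -2.38 in standard cells and 0.71 and 0.67 in control cells. It was 7.60-fold higher than in standard cells (limma adjusted p = 6.46e-10), and its change against control was 0.01 ± 0.11 (limma adjusted p = 0.966). Probe Z00005843-1 was 12.5-fold above standard cells (limma adjusted p = 2.40e-10) and 1.76-fold above control (limma adjusted p = 9.27e-05). Values near those of LY294002 cells were found for both probes in the untreated control or the RA groups, as the values given for Z00009597-1 show.

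**Figure D3:**
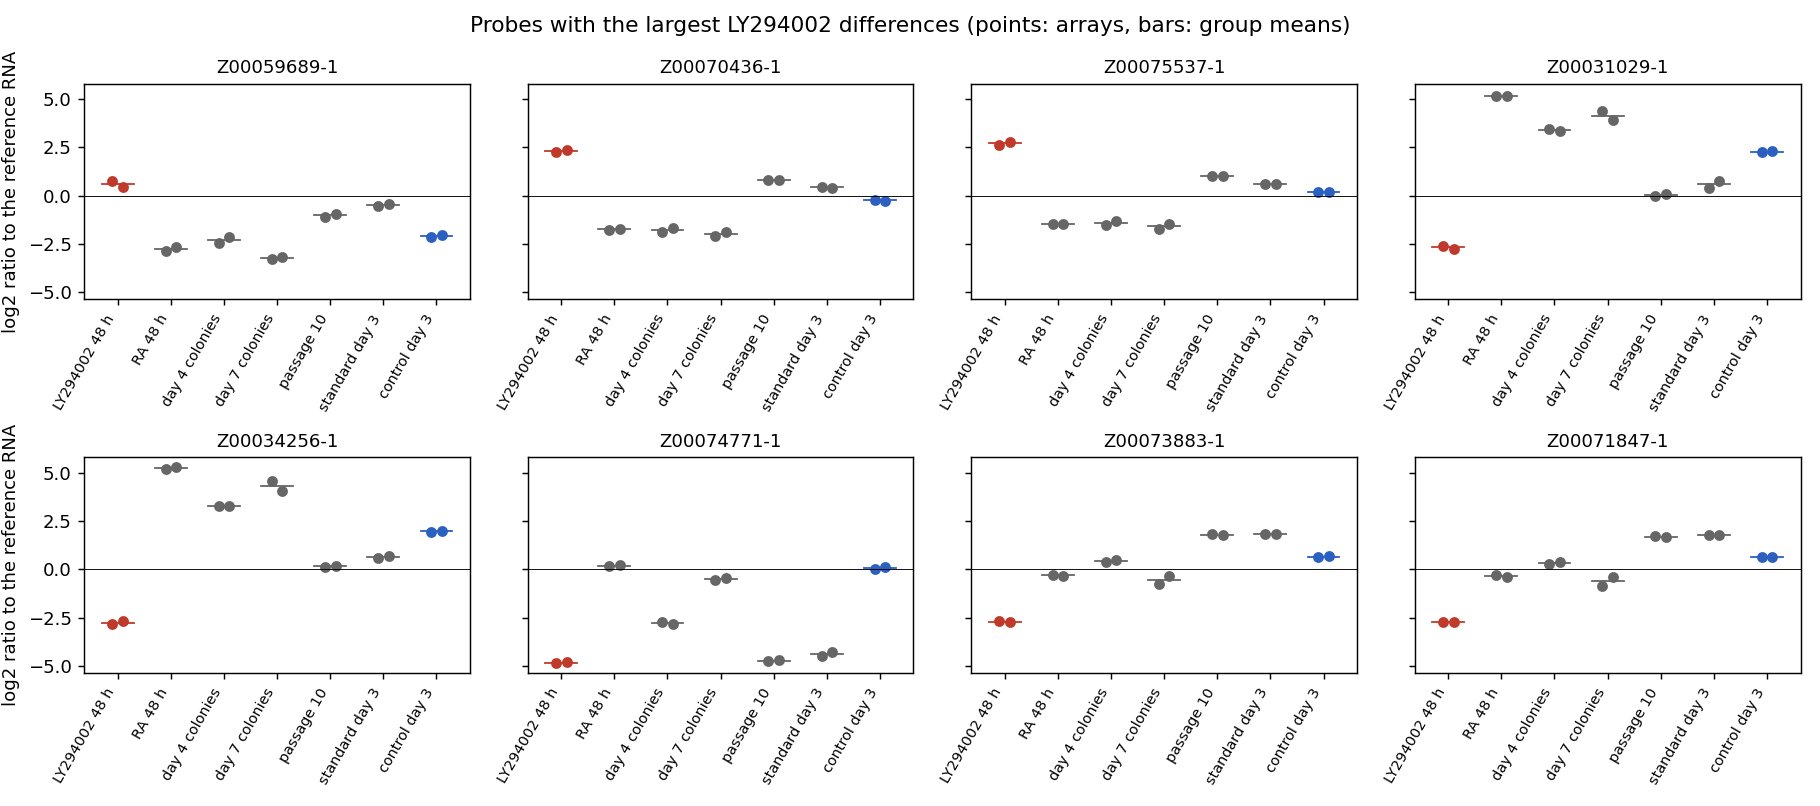
Log2 ratio to the reference RNA of 8 named probes in the 7 groups, with 1 point per array and a bar at each group mean, LY294002 in red and control day 3 in blue. The 2 arrays of each group lie close together beside the distances between groups, and Z00031029-1 and Z00034256-1 are lowest with LY294002 and highest in RA 48 h cells.

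The choice of untreated baseline was tested across all probes. The 2 untreated groups differed from each other at 53.9% of probes, 1163 of them at least 2-fold higher (3.75%) and 446 lower (1.44%) in control than in standard cells. The arrays of these 2 groups shared neither slide nor scan day, so culture, slide and scan day cannot be told apart. Cells kept for 10 passages, on the 2 slides that also held the standard arrays, differed from standard cells at 3.42% of probes. LY294002 cells differed from standard cells at 46.6% of probes, with 469 at least 2-fold higher (1.51%) and 983 lower (3.17%). That excess of losses over standard cells turned under median centring, with 1893 gains and 498 losses, and narrowly with processed signals, with 2415 and 2280. Both comparisons use the same LY294002 arrays. At least 2-fold losses against both baselines were seen for 631 probes, 35.4% of the losses against control and 64.2% of those against standard. At least 2-fold gains over both were seen for 113 probes, 25.7% of the gains over control and 24.1% of those over standard. Against RA 48 h cells 53.6% of probes were called, with gains of 2-fold or more at 344 probes (1.11%) and losses at 2294 (7.39%). Under median centring this balance turned too, to 1716 gains and 1420 losses against RA cells.

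The 1783 probes lost with LY294002 had, by that choice, high levels in control cells. Their median log2 ratio was -0.50 and -0.41 on the LY294002 arrays, against 1.13 and 1.11 on the control arrays and 0.25 and 0.28 on the standard day 3 arrays. The 440 raised probes had medians of 0.46 and 0.50 on the LY294002 arrays, against -0.71 and -0.70 on the control arrays and -0.05 and -0.12 on the standard arrays. For both sets the median of standard cells was between those of LY294002 and control cells, as were the medians of all other groups. Choosing the sets on the LY294002 and control arrays favours such an order. The 93 probes lost at least 8-fold had a median of -1.55 in LY294002 cells, 2.27 in RA 48 h cells, 0.61 in standard cells and 2.09 in control cells.

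**Figure D4:**
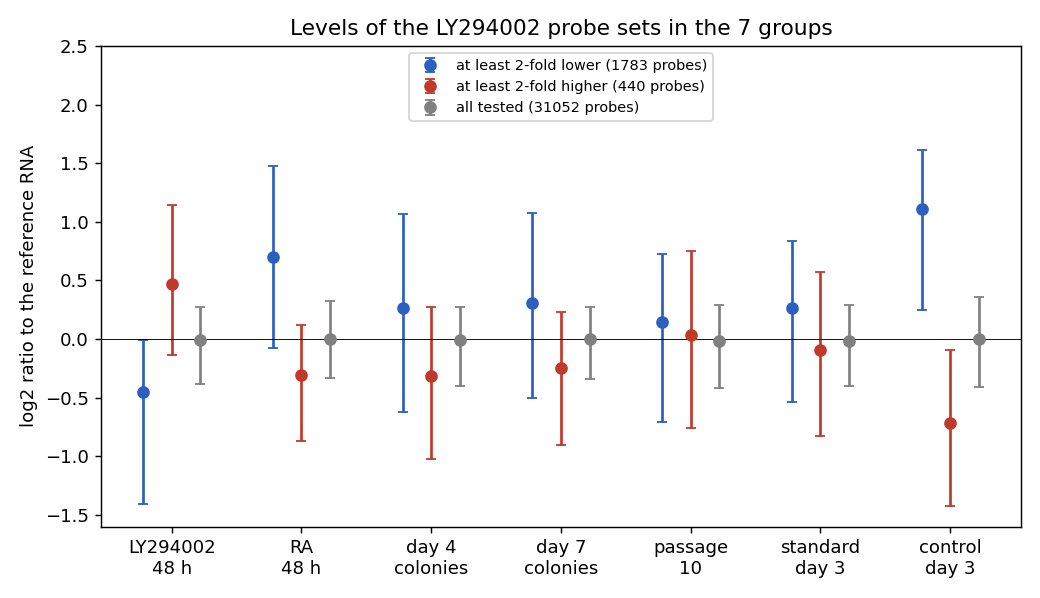
Median (points) and quartiles (bars) of the log2 ratio to the reference RNA over the 1783 probes at least 2-fold lower (blue) and the 440 at least 2-fold higher (red) with LY294002 than in control, and over all tested probes (grey), in the 7 groups. The 2 sets were chosen on the LY294002 and control arrays. That choice favours the order seen, in which the medians of all other groups lie between LY294002 and control for both sets.

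The same probes were followed in comparisons that use neither LY294002 nor control arrays. Of the 1783 lost probes, 607 (34.0%) were at least 2-fold higher in RA 48 h than in standard cells, where 6.97% of all tested probes were. In the same comparison 113 (6.34%) were at least 2-fold lower, where 2.48% of all probes were. In day 4 RA colonies 301 (16.9%) were higher and 192 (10.8%) lower than in standard cells, beside 3.41% and 3.07% of all probes. In day 7 colonies 357 (20%) were higher and 218 (12.2%) lower, beside 5.34% and 3.05%. The RA 48 h arrays share their slide with the control arrays on which the probes were chosen, and the part of the slide was not tested. The picked colonies lay on other slides and come from other cells than the standard MC1-ZE3 culture, so subline and RA cannot be told apart in them.

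Among the 440 probes raised with LY294002, 55 (12.5%) were at least 2-fold lower and 30 (6.82%) higher in RA 48 h than in standard cells, beside 2.48% and 6.97% of all probes. Day 4 colonies had 67 of them (15.2%) lower and 21 (4.77%) higher, beside 3.07% and 3.41%, and day 7 colonies 54 (12.3%) lower and 22 (5%) higher, beside 3.05% and 5.34%. The higher shares in RA 48 h cells and day 7 colonies were near those of all probes. In each of these 3 comparisons with RA-treated cells, which share the standard arrays, more of the lost probes were higher than lower, and more of the raised probes lower than higher. Passage 10 against standard cells, on the same standard arrays, ran the other way with few calls. There 29 of the lost probes were higher and 206 lower, and 62 of the raised probes higher and 7 lower at any size, where 1.66% of all probes were higher and 1.76% lower. Against control, whose arrays served to choose both sets, RA 48 h cells also had the reverse balance. At 2-fold or more, 132 lost probes rose (7.4%) and 164 fell (9.2%) there, and 58 raised probes rose (13.2%) and 4 fell (0.909%). Among all tested probes 2.71% rose and 0.895% fell, so the share of raised probes that fell was near that of all probes. Control itself exceeded standard cells at least 2-fold at 669 lost probes (37.5%) and was that far below them at 23 (1.29%). Among all tested probes these shares were 3.75% and 1.44%, and the lost probes were chosen on the same control arrays. Whether RA and LY294002 act in opposite directions on these probes was not tested.

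The probe sequences themselves were compared, since the members share nothing else that the files annotate. GC content was alike, with medians of 45% in lost, 43.3% in raised and 45% in all tested probes. The letters AATAAA, read on the probe's own strand, stood in 225 lost probes (12.6%), 31 raised probes (7.05%) and 2293 of all tested probes (7.38%). On the opposite strand (TTTATT) the shares were 2.75%, 5% and 3.07%. Against standard day 3 cells, 14.8% of lost and 3.62% of raised probes held AATAAA. With GC content over 50%, 14.4% of probes with the letters and 4.53% of those without were at least 2-fold lower with LY294002, and at 40% or less the shares were 8.63% and 5.5%. In class 2 by brightness they were 16.3% and 7.98%, and in the brightest class 5.31% and 3.96%. RA 48 h cells were set against the same control arrays, and there the letters stood in 10.2% of the 840 probes at least 2-fold higher (2.71% of those tested) and 13.3% of the 278 lower (0.895%). Of the probes lost at least 8-fold with LY294002, 9.68% held them. A match of 6 letters is a description of the probe and does not show a site in use.

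A small number of probes could be given a gene. The 60-base sequences were matched to windows of RefSeq (mouse build GRCm38.p6) that reach 50 bases into each gene, and 130 probes (0.309%) fell at the start of 129 genes. Probes near other parts of genes could not be placed in this way. Of the 130 probes 78 were tested. Of these 6 were higher and 17 lower with LY294002 than in control (29.5% called, against 52.6% of all tested probes), and 63 were above background on all 4 arrays. Against standard day 3 cells 14 of the 78 were higher and 5 lower, where 23.2% and 23.4% of all tested probes were. Ntng1 is the one gene of known name among them that changed 2-fold with all 4 arrays above background. The other genes below were chosen after their values were seen, as those past the threshold with a gene symbol that is not a clone name. Positions are those of the matched stretch, which lies at the annotated start of the gene, in its first exon and in places just before it.

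The largest loss was at Fthl17e, on chromosome X (9033494 to 9033535, plus strand), a member of a ferritin heavy chain-like family of the X chromosome. Its log2 ratios were -0.07 and -0.13 on the LY294002 arrays, where the probe was not well above background, against 2.04 and 1.99 on the control arrays. The LY294002 level was at least 3.80-fold lower than control, measured to the dimmest signal well above background (limma adjusted p = 2.78e-10). Standard day 3 cells read -0.09 and -0.08, and no difference from them is given, since the LY294002 level has only an upper bound. RA 48 h cells averaged 2.51.

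Ntng1, which encodes the axon guidance protein netrin G1, lies on chromosome 3 (110143430 to 110143489, minus strand). Its probe read 0.26 and -0.07 with LY294002, against 0.97 and 1.24 in control cells. The log2 change was -1.01 ± 0.19 (limma adjusted p = 0.000683), and the groups did not overlap. Against standard day 3 cells (-0.30 and 0.13) it was 0.18 ± 0.19 (limma adjusted p = 0.479).

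Of the histone genes with a probe past the threshold, 2 fell against control and were higher than in standard cells, and 1 fell against both. The replication-dependent H2bc11 on chromosome 13 (22043200 to 22043247, plus strand), a histone H2B gene, read -0.17 and -0.23 with LY294002, against 0.71 and 0.53 in control cells. Its log2 change was -0.82 ± 0.09 against control (limma adjusted p = 5.98e-06) and 0.47 ± 0.09 against standard (limma adjusted p = 0.000788). H4c3 on chromosome 13 (23698409 to 23698446, minus strand), a histone H4 gene, changed by -0.62 ± 0.08 against control (limma adjusted p = 4.73e-05) and by 0.24 against standard (limma adjusted p = 0.0332). The replication-independent H3f3a on chromosome 1 (180813556 to 180813601, minus strand), which encodes histone H3.3, fell against both, by -0.57 against control (limma adjusted p = 0.000122) and by -0.34 against standard (limma adjusted p = 0.007). Histone genes have near-identical copies, and a probe may also take up RNA of another copy.

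Sec61b and Snu13 fell against control by similar amounts. Sec61b, on chromosome 4 (47474670 to 47474710, plus strand), encodes a subunit of the channel that carries new proteins into the endoplasmic reticulum. It read -0.39 and -0.72 with LY294002, against 0.27 and 0.23 in control cells, a change of -0.80 ± 0.10 (limma adjusted p = 2.85e-05). Snu13, on chromosome 15 (82047549 to 82047581, minus strand), encodes a protein of the U4 spliceosomal and box C/D nucleolar particles, and it changed by -0.62 ± 0.11 (limma adjusted p = 0.000282). The Snu13 call was lost under median centring (-0.38, limma adjusted p = 0.0724). Neither gene passed the threshold against standard day 3 cells, where Sec61b changed by -0.11 ± 0.10 and Snu13 by 0.25 ± 0.11.

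Fau, on chromosome 19, encodes a ubiquitin-like protein fused to ribosomal protein S30 and had 2 probes. The probe at 6057955 to 6057996 (plus strand) changed by -0.69 ± 0.08 against control (limma adjusted p = 9.89e-06) and by -0.02 ± 0.08 against standard. The probe at 6057909 to 6057968 changed by -0.48 ± 0.08 against control (limma adjusted p = 0.000139) and by -0.43 ± 0.08 against standard (limma adjusted p = 0.000477). The 2 probes thus gave the same direction against control and disagreed against standard cells.

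Smaller falls against control were measured for Adck1, a mitochondrial protein of the ADCK family (-0.54 ± 0.11), for Xlr3b of the X-linked lymphocyte-regulated family (-0.49 ± 0.08) and for the glutathione transferase gene Gstp1 (-0.29 ± 0.06). The zinc finger gene Zfp825 changed by -0.29 ± 0.07 and Stard13 by -0.16 ± 0.06. Against standard cells Gstp1 alone of these fell (-0.25, limma adjusted p = 0.0057), and Zfp825 was higher (0.21, limma adjusted p = 0.021). Of these 5 genes only Xlr3b kept its call under median centring. The changes there were -0.27 at Adck1 (limma adjusted p = 0.362), -0.24 at Zfp825 (limma adjusted p = 0.0942), 0.038 at Stard13 and 0.00014 at Gstp1.

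The largest rise was at Myl12b on chromosome 17 (70990473 to 70990516, minus strand), which encodes a regulatory light chain of non-muscle myosin II. It read 0.24 and 0.01 with LY294002, against -0.62 and -0.65 in control cells. The log2 change was 0.76 ± 0.09 against control (limma adjusted p = 1.02e-05), and 0.43 ± 0.09 against standard cells (limma adjusted p = 0.0015). Psme2 on chromosome 14 (55590999 to 55591058, minus strand), which encodes a subunit of the PA28 proteasome activator, rose by 0.32 ± 0.07 over control (limma adjusted p = 0.00264) and by 0.20 over standard (limma adjusted p = 0.0378). Frg2f1 (0.60 ± 0.09) and Toe1, which encodes an RNA deadenylase (0.31 ± 0.07), rose over control and did not pass the threshold against standard cells, at -0.13 each. Under median centring the calls against control were lost for Psme2 (limma adjusted p = 0.0514) and Toe1 (limma adjusted p = 0.0539), and with processed signals for Psme2 (limma adjusted p = 0.105).

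**Figure D5:**
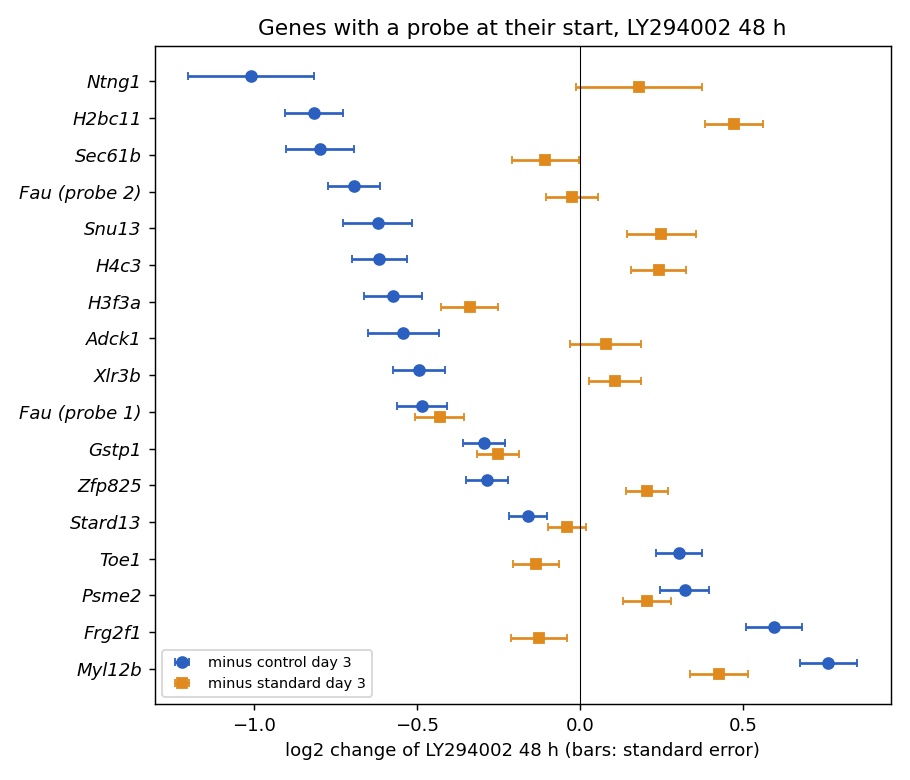
Log2 change of LY294002 48 h minus control day 3 (blue circles) and minus standard day 3 (orange squares) for the 17 probes at the start of 16 named genes that passed the threshold against control and were above background on all 4 arrays, with standard errors. Changes against control run from -1.01 at Ntng1 to 0.76 at Myl12b, and 3 of the 13 falls against control were also called lower against standard cells.

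The pathway lists could hardly be read on these probes. Of 852 symbols in 25 lists, which cover PI3K, AKT and mTOR genes, FOXO and MYC targets, pluripotency factors, germ layer and feeder cell markers and metabolism, 6 had a placed probe and 5 were tested. The 5 were the ribosomal protein genes Rpl10a (-0.08 ± 0.18) and Rps25 (-0.06 ± 0.12), the thymidylate synthase gene Tyms (-0.11 ± 0.09), the secreted hormone gene Stc2 (-0.09 ± 0.09) and the smooth muscle actin gene Acta2 (0.10 ± 0.09). By limma 0 of the 5 passed the adjusted threshold against control, and 0 had an unadjusted p under 0.05. Their median log2 change was -0.08, beside 0.00 over all tested probes. Neither LY294002 array had Stc2 or Acta2 well above background, and both control arrays had. The PI3K pathway genes, the ES cell markers that would check the labelled cell type, and most markers of other cell types had no placed probe and were not analysed here. Of 30 placed probes at olfactory, vomeronasal and trace amine receptor or beta-defensin genes, families known from sensory and epithelial tissues, 4 were tested and 0 passed the threshold against control, beside 52.6% of all tested probes.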

How the data were processed

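Per the file headers, the software behind these 2-colour array files was Agilent Feature Extraction 9.5.1.1. The deposited intensity values (mean signals and median backgrounds) carry no normalization, and the processed signals were background-subtracted and dye-normalized by it. The deposited log10 ratios give Cy5 over Cy3. A table of log10 values made by the authors covers 25030 of 42006 probes, and its per-probe centring and constant are not given in the sources used here. Array columns correlated at 0.98 or more with minus the deposited log10 ratio, so its direction is sample over reference, and it was converted to log2.

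Intensities were corrected with normexp (offset 50) and loess in limma 3.58.1 under R 4.3.3. Control and outlier spots were left out. A probe was tested where some group had Cy3 well above background on each of its arrays, 31052 in all (73.9%). One mean per group was fitted over 14 arrays (7 residual degrees of freedom, 5.33 from the prior), with two-sided eBayes tests and Benjamini-Hochberg adjustment over all tested probes. The number of arrays limits the precision. The fit and test, without the correction and scaling of intensities, were run on simulated arrays that held no slide effect. Shared replicate numbers do not pair the LY294002 and control arrays (r of same-numbered deviations -0.09).

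No file pairs probes with genes. The naming rule asked for a match of the whole probe to transcripts or of its translation to proteins. Neither was at hand, so matches of at least 30 bases to RefSeq windows (250 bases before to 50 after 32851 gene starts) on the same strand were used, with at least 20 bases in the transcribed part, and 24 probes inside another annotated gene were left out. This was decided after the files were seen. Named genes were to be the 12 largest rises and falls of at least 2-fold, list members and, without a gene, the 2 largest rises and falls per comparison, above background on the 4 arrays and not overlapping between groups. Members and lists were chosen with earlier results of these data known.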

Additional observations from a re-analysis of the deposited data

How the results depend on the processing

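Against control, 1107 probes were at least 2-fold higher under median centring, 1604 with processed signals and 911 in the authors' table, and 3323 were at least 2-fold lower with processed signals and 983 against the standard day 3 baseline. Lower calls of any size numbered 3929 under median centring and 5589 in the authors' table. Against standard cells these 2 settings gave 2033 and 4675 lower calls. At least 2-fold gains over standard numbered 1893, 2415 and 1235 under median centring, with processed signals and in the authors' table, and losses 498, 2280 and 1502. Against RA cells, lower calls numbered 4553 under median centring and 5693 in the authors' table. At least 2-fold gains over RA numbered 1716, 1726 and 916 in the same order of settings, and losses 1420 under median centring and 3686 with processed signals. The authors' table tests fewer probes, and otherwise the cause was not tested. The median change of the 5 list members was 0.13 under median centring and 0.017 in the authors' table. Leaving out each array in turn gave 439 to 495 higher and 1746 to 1870 lower probes at 2-fold or more against control, so the LY294002 array that stood apart decided neither count. With a replicate block there were 443 and 1782, with slide as a random block 443 and 1783, and on the 4 arrays alone 439 and 1783. The random slide block cannot take out a slide effect here, because treatment and slide change together in this comparison. Its near-equal counts therefore do not bear on the part of slide. The same-numbered arrays share only a number, and each block count is within 1.5 times its value without the block.

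For the 27 named probes and genes, 341 of 360 values with control as baseline kept direction and side of the threshold, 16 lost the call and 3 turned. Those 3 were Gstp1 (0.00014) and Stard13 (0.038) under median centring and Stard13 with Cy3 alone (0.19). Stard13 was also lost on leaving out each array (changes of -0.18 to -0.13), on the 4 arrays alone and with the replicate block (limma adjusted p = 0.0511). Against standard cells the direction turned past the threshold for H2bc11 (0.47), H4c3 (0.24) and Zfp825 (0.21). The sign also differed, without passing the threshold, for Adck1 (0.079), Frg2f1 (-0.13), Ntng1 (0.18), Snu13 (0.25), Toe1 (-0.13) and Xlr3b (0.11).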
